A study of Mus musculus with 12 samples.

Results

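Oxidative phosphorylation is carried out by 5 protein complexes of the inner mitochondrial membrane, and the 82 nuclear genes described here encode their subunits. Members were the genes whose symbol begins with Nduf and a subunit letter and number (complex I), is Sdha, Sdhb, Sdhc or Sdhd (complex II), or begins with Uqcr (complex III), Cox4 to Cox8 (complex IV) or Atp5 (complex V). Of 96 symbols that matched, 8 carried -ps in their name and 6 had fewer than 100 counts over 12 mice, which left 82 of 55453 genes: 37 of complex I, 4 of complex II, 8 of complex III, 16 of complex IV and 17 of complex V. The member nearest the limit was Cox4i2 with 1241 counts, and the nearest gene left out was Cox6c2 with 23, so no gene lay close to it. The rule did not use the direction or size of any change, and all 82 members passed the filter on low counts.

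RNA-Seq was performed on whole skin from 12 C57BL/6 mice, and 4 groups held 3 animals each. Wild-type animals received PBS (WT PBS) or bleomycin (WT BLM), and so did animals without Thy-1 (KO PBS, KO BLM). Bleomycin, a DNA-damaging drug that causes fibrosis around the injection site, was given by repeated daily injection under the back skin at 10 mg/kg per day. The skin was taken on day 21. The KO mice were female, 8 to 12 weeks old and carried a germline loss of Thy1, which encodes a surface glycoprotein of fibroblasts and T cells. The sex and age of the WT mice of these libraries were not given in the sources used here. The comparisons ask how bleomycin changed the skin of each genotype and whether the response depended on Thy-1.

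Complexes I and II pass electrons from NADH and succinate to ubiquinone, complex III passes them on to cytochrome c, and complex IV hands them to oxygen. Complexes I, III and IV pump protons, and complex V, the ATP synthase, lets the protons flow back to make ATP. Striated muscle and brown fat are rich in these complexes. In striated muscle 3 ubiquitous subunits of complex IV give way to other forms: Cox6a2 for Cox6a1, Cox7a1 for Cox7a2, and Cox8b for Cox8a. They are called striated-muscle forms below, which does not mean that other tissues, such as brown fat, lack them.

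The libraries held 26473700 to 38890450 gene counts, and levels are given as CPM, the count scaled to a common TMM-normalized library size. Thy1 was read at 104 to 150 CPM in WT PBS and 45.6 to 96.9 CPM in KO PBS mice, and after bleomycin at 231 to 416 CPM in WT and 84.7 to 128 CPM in KO mice. It was thus lower in KO than in WT mice under each treatment without overlap but was still counted. Gene-level counts do not show which part of the gene was read. Nnt, a mitochondrial gene outside the members, was read at 12.1 to 27.9 CPM in WT and 29.5 to 79.9 CPM in KO mice. Whether the genotypes also differed in substrain was not tested, so a part of it in the comparisons of KO with WT mice cannot be told apart. The tissue label matched its markers: 9 epidermal genes summed to between 9339 and 45967 CPM in every mouse. Other tissue components separated the groups. The summed level of 15 fast skeletal muscle genes was 6669 to 7548 CPM in WT PBS mice and 23103 to 47025 CPM in WT BLM mice. The KO PBS mice 136, 137 and 139 had 8699, 36096 and 30885 CPM, and the KO BLM mice 141, 143 and 144 had 16760, 13742 and 25810 CPM. The 21 growing-hair genes in the file summed to between 48883 and 71036 CPM in WT PBS and to between 103 and 872 CPM in WT BLM mice. In KO PBS skin, mouse 136 had 77860 CPM of the hair genes while mice 137 and 139 had 91.7 and 280 CPM, and in KO BLM skin mouse 141 had 37380 CPM against 3758 and 6223 CPM in mice 143 and 144. Mice 136 and 141 therefore stood apart from the other mice of their groups, and results that rest on them are given with and without them.

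The subunit genes were abundant, with a summed level of 8573 ± 119 CPM (SD, n = 3) in WT PBS skin. Levels per kilobase were divided by the joined length of all exons annotated for a gene. The 2 large catalytic-head subunits of ATP synthase had the highest levels of the 80 members with a length. Atp5a1 (alpha) had a median of 274 CPM per kb over the 12 mice and Atp5b (beta) 245. Subunits of complex IV followed, with Cox6b1 at 240, Cox6a1 at 208, Cox8a at 188 and Cox4i1 at 170 CPM per kb. Neighbours in this order overlapped in their ranges over the 12 mice and were not resolved, whereas Atp5a1 (254 to 337) lay above Cox8a (137 to 241) in its whole range. The lowest medians were those of Cox4i2, the lung form of subunit 4, with 4.53, Cox6b2, the testis form of subunit 6b, with 4.11, the complex I subunits Ndufb2 and Ndufb4 with 3.37 and 3.16, and Atp5l with 0.861 CPM per kb. The joined length was 5628 bases for Ndufb2 and 6443 for Atp5l, and a gene whose main transcript is shorter than its joined length reads too low. Ndufb2 was read at 15.5 to 22.4 CPM before the division. These low values therefore do not rank the genes by transcript level.

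In WT skin, the subunit genes were higher after bleomycin. The summed level was 10509 ± 725 CPM in WT BLM against 8573 ± 119 CPM in WT PBS mice (SD, n = 3 each), and the mean log2 CPM of the 82 genes lay 0.40, 0.29 and 0.29 above the WT PBS mean in mice 145, 146 and 147. All 3 WT BLM mice were above all 3 WT PBS mice, which lay between -0.03 and 0.04. By edgeR's quasi-likelihood test with Benjamini-Hochberg adjustment over 18311 genes, 25 of 82 members rose and 0 fell at an adjusted p under 0.05. Over all genes tested 34% were called in this comparison, 19.8% as higher and 14.1% as lower. The share of members called was close to that of all genes, and the members differed in being called in 1 direction. The median log2 fold change of the members was 0.27 (1.21-fold), against 0.02 over all genes tested, and 9 members were below 0 against 49% of all genes. At an unadjusted p under 0.05 there were 34 members, where 47.4% of all genes were. The levels did not overlap between the groups for 58 members that were higher and 5 that were lower, where 28.3% and 28.7% of all genes did so. In bulk skin, fewer cells of a type and less RNA per cell cannot be told apart.

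**Figure D1:**
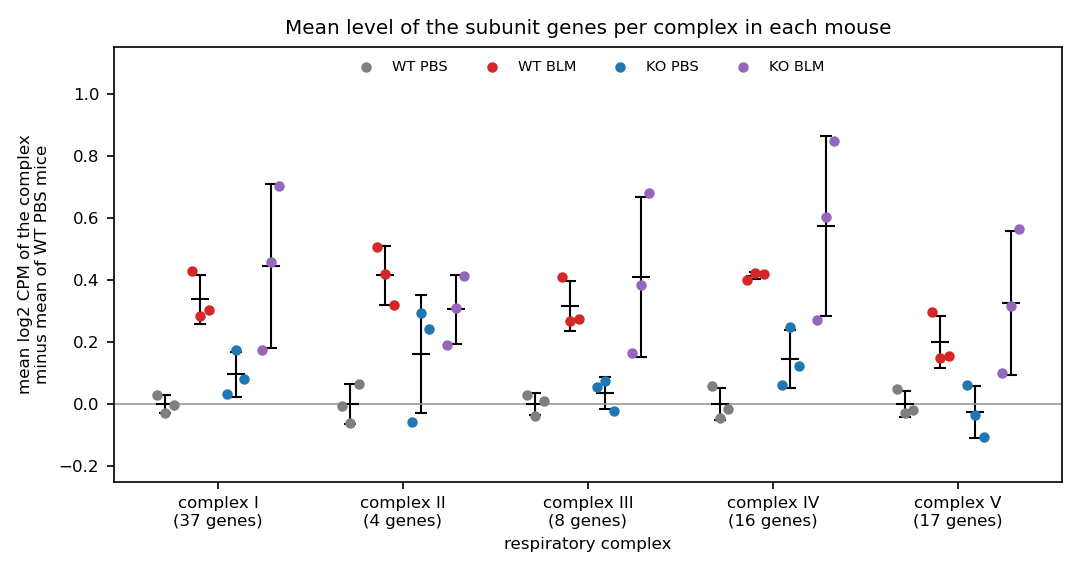
Mean log2 CPM of the subunit genes of each respiratory complex (x axis) in each mouse, minus the mean of the WT PBS mice (y axis), with points for mice in order of mouse number and black bars for the group mean ± SD (n = 3). WT BLM mice lay above WT PBS mice in every complex, and the KO BLM mice were spread from 141 (lowest) to 144 (highest).

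Complex I, which oxidizes NADH, held 15 of the 25 called members among its 37 genes, with a median log2 fold change of 0.35. Ndufs1, the largest subunit and a carrier of iron-sulfur clusters, was read at 104, 105 and 110 CPM in WT PBS mice and at 150, 136 and 120 CPM in WT BLM mice. The groups did not overlap, and the log2 fold change was 0.35 ± 0.10 (SE, adjusted p = 0.0281). Ndufs4, an accessory subunit of the NADH-oxidizing arm, rose by a similar amount (0.40 ± 0.13, adjusted p = 0.0365). Ndufv1, which binds NADH, did not pass the test at 0.19 ± 0.12 (adjusted p = 0.232). Ndufa13, also known as Grim19 and singled out after its values were seen, went from 91.2, 83.0 and 88.1 CPM to 151, 141 and 135 CPM (0.70 ± 0.17, adjusted p = 0.0142). The highest estimate in the complex belonged to Ndufa4l2, a hypoxia-responsive relative of Ndufa4, but its WT BLM values of 111, 64.0 and 145 CPM were too scattered to pass (1.09 ± 0.52, adjusted p = 0.122). Ndufa4 itself, which carries a complex I name although the protein has since been assigned to complex IV, rose with 0.60 ± 0.16 (adjusted p = 0.0204). The lowest estimate was that of Ndufs6 at -0.04 ± 0.13 (adjusted p = 0.808).

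Complex II, succinate dehydrogenase, also belongs to the citric acid cycle and has no subunit encoded by mitochondrial DNA. Of its 4 genes 3 rose and Sdhb did not. Sdhd, a membrane anchor, was read at 69.4, 63.5 and 70.5 CPM in WT PBS and at 126, 119 and 116 CPM in WT BLM mice, a log2 fold change of 0.83 ± 0.18 (1.78-fold, adjusted p = 0.0108). Sdhc, the other anchor, went from 80.3 ± 6.29 to 116 ± 3.56 CPM (0.53 ± 0.16, adjusted p = 0.0289), and Sdha, the flavoprotein that oxidizes succinate, from 217 ± 13.6 to 299 ± 38.5 CPM (0.46 ± 0.14, adjusted p = 0.0316). Sdhb, the iron-sulfur subunit, was read at 135, 136 and 138 CPM in WT PBS and at 130, 123 and 113 CPM in WT BLM mice. Its 3 WT BLM values were all below those of WT PBS, but the change of -0.16 ± 0.10 did not pass the test (adjusted p = 0.241). Whether Sdhb differed from the other subunits in its change was not tested.

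In complex III, which transfers electrons from ubiquinol to cytochrome c, 8 of 8 members had an estimate above 0 but 1 was called. This was Uqcrfs1, the Rieske iron-sulfur protein, with 79.8, 78.6 and 80.0 CPM in WT PBS and 135, 115 and 113 CPM in WT BLM mice (0.60 ± 0.13, adjusted p = 0.00942). The WT PBS mice differed by less than 2 CPM from each other and all 3 WT BLM mice lay well above them. Uqcrc1, a core protein, missed the threshold at 0.44 ± 0.16 (adjusted p = 0.0564), and so did its partner Uqcrc2 at 0.23 ± 0.11 (adjusted p = 0.121). The smallest change was that of the small subunit Uqcr10, 0.15 ± 0.14 (adjusted p = 0.401).

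Complex IV, cytochrome c oxidase, had the widest range of estimates. Of its 16 genes 4 rose, and 3 of these were the striated-muscle forms. Without these 3 genes, 1 of the 13 remaining members was called, the small subunit Cox7c with 0.41 ± 0.15 (adjusted p = 0.0493). Cox4i1, the common form of the largest nuclear-encoded subunit, had 0.39 ± 0.18 (adjusted p = 0.104), Cox5a, a matrix-side subunit, 0.18 ± 0.16 (adjusted p = 0.399) and Cox6c 0.30 ± 0.15 (adjusted p = 0.146). Without overlap, 4 of the 16 members were lower in WT BLM mice, where 28.7% of all genes were: Cox6a1, Cox7a2, Cox8a and Cox6b2. The share of these members was thus not above that of all genes. For Cox7a2 the highest WT BLM value was 91.7 CPM and the lowest WT PBS value 91.9 CPM. The lowest estimate, -0.67 ± 0.55, was that of Cox4i2 (adjusted p = 0.354), whose WT BLM values of 0.705, 3.88 and 2.56 CPM overlapped the 3.08 to 4.33 CPM of WT PBS mice.

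Complex V had the lowest median log2 fold change of the 5 complexes, 0.20, and 2 of 17 members called. One was Atp5g1, a gene for the c subunit of the proton-driven ring, which went from 59.2 ± 4.07 to 86.5 ± 10.4 CPM (0.55 ± 0.18, adjusted p = 0.0432). The ring protein is encoded by 3 genes with the same mature product, and neither of the others was called: Atp5g3, read at 177 ± 8.75 CPM in WT PBS mice, had 0.31 ± 0.12 (adjusted p = 0.0728) and Atp5g2 had 0.03 ± 0.13 (adjusted p = 0.885). The second called gene was Atp5c1, the gamma subunit of the rotor (0.43 ± 0.14, adjusted p = 0.0421). A -ps copy of it held 8 counts against its 84300 over the 12 mice, and how many reads the copies share was not tested. The catalytic-head genes Atp5a1 (826 ± 33.8 to 947 ± 102 CPM) and Atp5b did not pass the test, with 0.20 ± 0.15 and 0.12 ± 0.16 (adjusted p = 0.309 and 0.573). Atp5l, a membrane subunit with a -ps copy, had the lowest estimate at -0.19 ± 0.26 (adjusted p = 0.571).

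**Figure D2:**
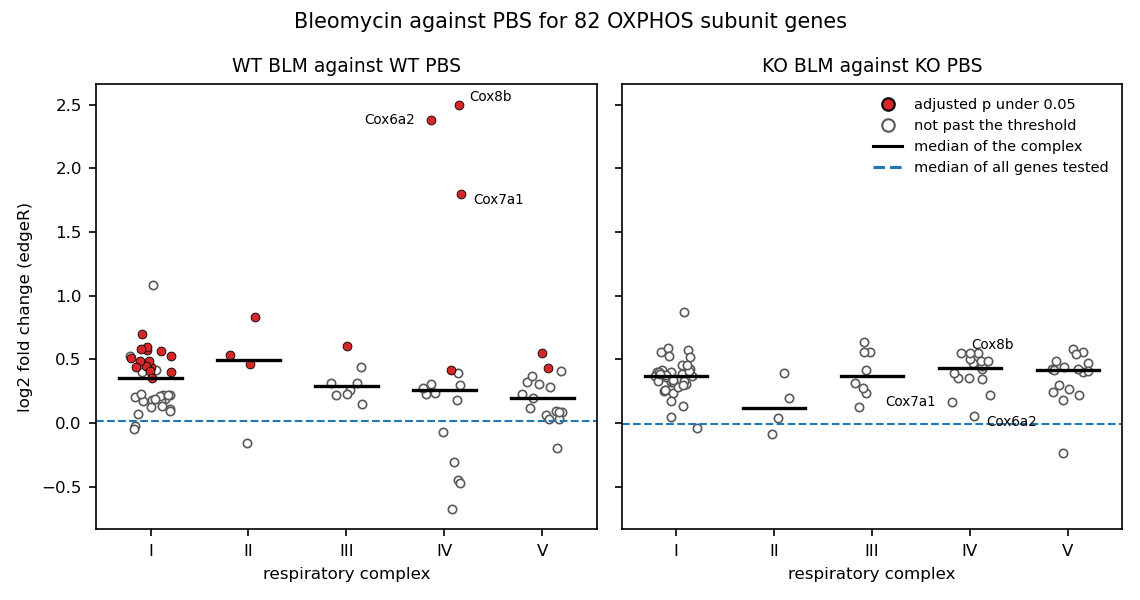
The log2 fold change of each subunit gene (y axis) by respiratory complex (x axis) for bleomycin against PBS in WT mice (left) and in KO mice (right), with red points for an adjusted p under 0.05, black bars for the median of the complex and a dashed line for the median of all genes tested. In WT mice the called genes were mostly those of complexes I and II plus Cox6a2, Cox7a1 and Cox8b, whereas in KO mice no point was red although 79 of 82 lay above 0.

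The number called in WT skin rested on every mouse of the comparison. It was 5, 12 and 12 without WT BLM mice 145, 146 and 147 and 5, 3 and 6 without WT PBS mice 159, 160 and 161. Over all genes the calls went from 6222 to 4027, 3706 and 3299 and to 2626, 2615 and 3388 in the same fits. Cox6a2, Cox8b and Uqcrfs1 were called in all 6 of these fits, Sdhd and Ndufa13 in 5 of them, and 10 of the 25 genes in 0. With the mean log2 CPM of the fast muscle genes as a covariate 0 members were called (0 also at an unadjusted p under 0.05, median 0.21), and likewise 0 with the growing-hair genes (0 unadjusted, median 0.18). These fits called 0 and 14 of all 18311 genes, so the loss of calls was not particular to the members. All WT BLM mice differed from all WT PBS mice in both lists, so bleomycin and these tissue differences cannot be told apart among WT mice.

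The striated-muscle forms of complex IV had the largest changes of all members. Cox6a2 (chr7:128205435-128206387, minus strand, GRCm38) was read at 26.6, 20.4 and 24.2 CPM in WT PBS mice and at 161, 118 and 91.4 CPM in WT BLM mice. The groups were widely separated, and the log2 fold change was 2.38 ± 0.53 (5.20-fold, adjusted p = 0.0114). Cox8b (chr7:140898945-140900446, minus strand) went from 10.5, 8.62 and 11.6 CPM to 75.7, 57.7 and 40.4 CPM (2.5 ± 0.49, adjusted p = 0.0078), and Cox7a1 (chr7:30184144-30186078, plus strand) from 7.61, 5.59 and 7.82 CPM to 32.0, 21.6 and 19.6 CPM (1.80 ± 0.47, adjusted p = 0.0187). The estimates of the ubiquitous partners were below 0. Cox6a1 was read at 151, 155 and 146 CPM in WT PBS and at 95.5, 100 and 135 CPM in WT BLM mice, and Cox8a at 128, 118 and 115 CPM and then 85.0, 95.3 and 112 CPM. Neither passed the test (-0.45 ± 0.21, adjusted p = 0.122, and -0.31 ± 0.16, adjusted p = 0.147). Cox7a2, at 93.8 ± 1.69 and 89.3 ± 3.81 CPM, differed by -0.07 ± 0.14 (adjusted p = 0.701).

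Because both genes of a pair are read in the same library, the share of the striated-muscle form does not depend on scaling. Per kilobase, Cox6a2 made up 14.0% ± 1.79 (SD, n = 3) of the Cox6a pair in WT PBS and 53.2% ± 11.3 in WT BLM mice, and 37.0% ± 21.9 and 30.0% ± 6.88 in KO PBS and KO BLM mice. Cox7a1 made up in the same order 11.6% ± 1.92, 32.2% ± 5.43, 22.8% ± 12.7 and 19.8% ± 5.42 of its pair, and Cox8b 12.8% ± 1.86, 49.9% ± 11.1, 29.2% ± 16 and 31.8% ± 7.33. WT PBS and WT BLM mice did not overlap in any of the 3 pairs. The two-sided exact permutation test gave p = 0.1 for each (0.24 after adjustment over 12 tests), the smallest value that groups of 3 can reach. For Cox6a and Cox7a the KO BLM mice lay below the WT BLM mice without overlap (exact p = 0.1, adjusted 0.24), and for Cox8 they overlapped (exact p = 0.2). The wide spread in KO PBS skin came from mouse 136, whose shares of 12% (Cox6a2), 8.17% (Cox7a1) and 11% (Cox8b) lay among or below those of WT PBS mice, whereas mice 137 and 139 had 53.0% and 46.1% of Cox6a2. Ucp1, which defines brown adipocytes, was at or below 0.0918 CPM in every mouse, with at most 3 reads. Of the 6 genes of the brown adipocyte list that were tested, 1 rose (Dio2) and 1 fell (Elovl3) in WT skin, where 19.8% and 14.1% of all genes did so. Cidea was read at 8.54 to 68.3 CPM over the 12 mice. The 7 listed genes summed to between 116 and 135 CPM in WT PBS and to between 57.4 and 73.0 CPM in WT BLM mice, and to between 97.9 and 165 CPM in KO PBS and 121 and 151 CPM in KO BLM mice.

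**Figure D3:**
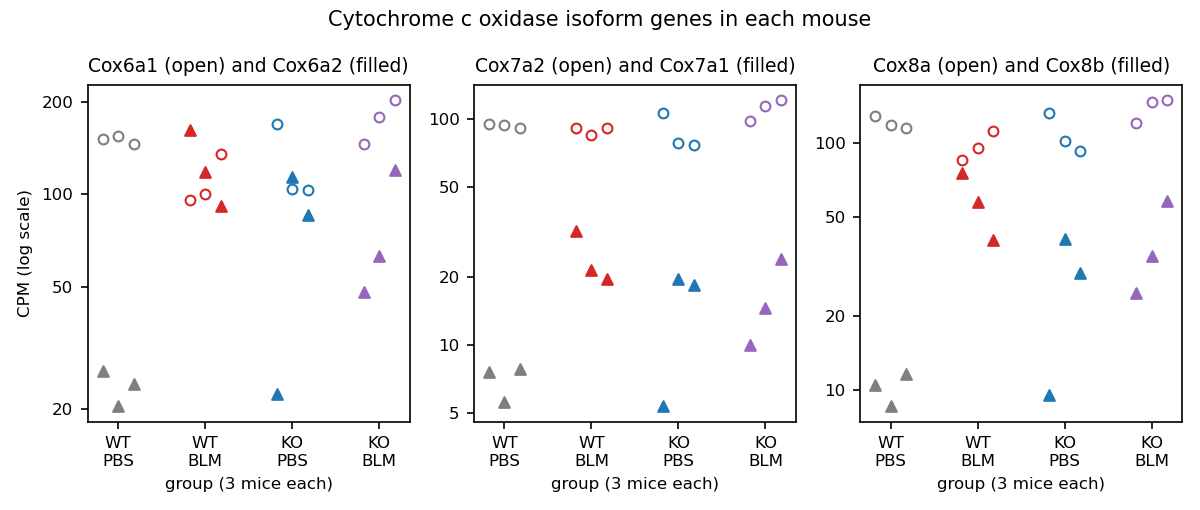
CPM on a log scale (y axis) of the ubiquitous form (open circles) and the striated-muscle form (filled triangles) of the complex IV subunits 6a, 7a and 8 in each mouse, with mice in order of their number within each group (x axis). The striated-muscle forms lay far below their partners in the WT PBS mice and in KO PBS mouse 136, and for subunit 6a they made up more than the partner per kilobase in WT BLM mice 145 and 146 and KO PBS mouse 137 (63.5%, 54.9% and 53.0%).

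The fast muscle genes moved with these shares. Mice 145 and 146, with 47025 and 42497 CPM of fast muscle genes, had the highest Cox6a2 shares, 63.5% and 54.9%, and mouse 137 with 36096 CPM followed at 53.0%. The WT PBS mice and mouse 136, all at or below 8699 CPM, had the lowest. With the fast muscle covariate the log2 fold changes between WT BLM and WT PBS were 0.06 for Cox6a2, 0.39 for Cox8b and -0.07 for Cox7a1, and none was called (adjusted p = 0.986, 0.855 and 0.985), and with the growing-hair covariate they were 0.67, 1.0 and 0.26 (adjusted p = 0.732, 0.505 and 0.923).

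**Figure D4:**
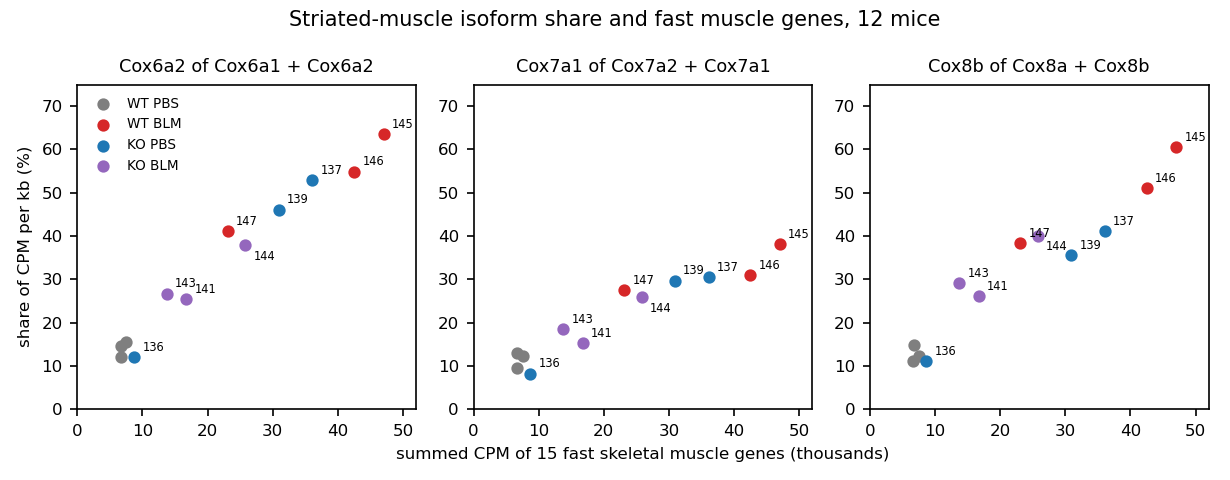
Share of the striated-muscle form per kilobase within each complex IV pair (y axis, %) against the summed CPM of 15 fast skeletal muscle genes (x axis, in units of 1000 CPM) in each of the 12 mice, labelled by mouse number except for the WT PBS mice. The WT PBS mice and mouse 136 formed the low end of each panel, with Cox6a2 shares of 12% to 15.4%, and mouse 145 the high end at 63.5%.

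Promoters were examined because genes of one complex had estimates on both sides of 0. RefSeq promoter windows (250 bases before to 50 after the start, GRCm38.p6) were matched by symbol for 66 members. Among those not matched were Ndufs1, Ndufa2, Ndufa4l2, Ndufb9, Sdhc, Uqcrb, Uqcrc2, Uqcrq, Cox4i1, Cox4i2, Cox6a2, Cox6c, Atp5a1, Atp5f1 and Atp5mpl. Motifs were searched as exact letters, with N for any base, on both strands, and none of the searched motifs contains another. The motif of NRF1, a factor known for its sites in respiratory genes, was in 24.2% of member promoters against 4.78% of all 27025 promoters. The ETS motif read by GABPA (CCGGAAG) was also in 24.2%, against 9.12% of all, and 42.4% held either of them against 13% of all. Matches of the ERR motif (TCAAGGTCA) were in 2 member promoters, those of Sdhd and Atp5g3 (3.03% against 0.407%), and matches of the YY1 motif in 4, all of complex I (6.06% against 0.899%). The letters of the MEF2 motif were in 1 member promoter, that of Cox5b (1.52% against 3.7%), and those of a myogenic E-box (CAGCTG) in 6 (9.09% against 16.1%). These counts describe letters in a window and not bound sites.

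The 150 bases before the RefSeq start are printed for the genes of the subunit 6a, 7a and 8 pairs that have a match in the table, since they had the highest and among the lowest estimates, and for Sdhd, the most changed gene of complex II. Capitals mark the motif matches within the printed stretch, and each sequence reads 5′ to 3′ on the strand of its gene. The last bases of the Cox6a1, Cox7a2 and Cox7a1 stretches lie inside the GENCODE M21 gene model, which starts earlier there. Cox6a1 (chr5:115348959-115349108, minus strand) and Sdhd (chr9:50603850-50603999, minus strand) held an NRF1 and an ETS match, and Cox8b (chr7:140900447-140900596, minus strand) held an E-box. Cox7a2 (chr9:79759854-79760003, minus strand) and Cox7a1 (chr7:30184021-30184170, plus strand) held none of the 6 motifs, and Cox8a (chr19:7217617-7217766, minus strand) had an ETS match outside the printed stretch.
Cox6a1: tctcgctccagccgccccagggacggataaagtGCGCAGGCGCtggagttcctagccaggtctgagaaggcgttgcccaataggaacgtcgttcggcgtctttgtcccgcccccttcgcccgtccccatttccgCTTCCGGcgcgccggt
Cox7a2: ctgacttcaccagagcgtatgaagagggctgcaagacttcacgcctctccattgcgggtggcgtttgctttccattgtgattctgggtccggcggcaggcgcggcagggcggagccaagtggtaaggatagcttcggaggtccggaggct
Cox7a1: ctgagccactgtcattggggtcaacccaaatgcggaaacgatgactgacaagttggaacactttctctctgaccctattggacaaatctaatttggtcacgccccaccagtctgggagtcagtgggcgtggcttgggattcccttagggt
Cox8a: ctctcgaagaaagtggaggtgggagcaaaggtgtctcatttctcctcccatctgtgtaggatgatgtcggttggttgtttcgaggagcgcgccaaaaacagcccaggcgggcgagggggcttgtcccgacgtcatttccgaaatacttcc
Cox8b: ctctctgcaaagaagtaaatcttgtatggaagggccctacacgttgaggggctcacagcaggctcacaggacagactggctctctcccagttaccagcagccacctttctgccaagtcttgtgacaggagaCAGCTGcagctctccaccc
Sdhd: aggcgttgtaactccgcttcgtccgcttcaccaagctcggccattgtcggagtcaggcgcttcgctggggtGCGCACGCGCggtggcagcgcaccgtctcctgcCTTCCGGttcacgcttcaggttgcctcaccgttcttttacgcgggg

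In KO skin, the members again lay above PBS after bleomycin, but none passed the test. The mean log2 CPM of the 82 genes, relative to WT PBS mice, was 0.18, 0.44 and 0.69 in KO BLM mice 141, 143 and 144 and 0.04, 0.14 and 0.05 in KO PBS mice 136, 137 and 139. All 3 KO BLM mice were above all 3 KO PBS mice, mouse 141 only slightly so. Of 82 members 0 were called by edgeR's quasi-likelihood test, where 0.306% of all genes were (0.251% as higher), although 51 members had an unadjusted p under 0.05 against 20% of all genes. The lowest adjusted p by edgeR was 0.103. DESeq2 called 9 members, where it called 1202 of 34528 genes, a set that includes low-count genes the edgeR filter left out. The median log2 fold change of the members was 0.38 (1.31-fold) against -0.01 over all genes tested, and 3 members were below 0 against 50.6% of all genes. The groups did not overlap for 39 members, all higher in KO BLM mice, where 10.8% of all genes were higher and 8.44% lower without overlap.

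Complex IV had the highest median log2 fold change in this comparison, 0.43, followed by complex V with 0.42, complex I with 0.37, complex III with 0.37 and complex II with 0.12. Ndufa4 was read at 107, 123 and 110 CPM in KO PBS mice and at 126, 181 and 204 CPM in KO BLM mice (0.59, adjusted p = 0.123). Uqcrq, a small subunit of complex III, had 85.3, 82.7 and 70.3 CPM and then 94.6, 113 and 163 CPM (0.64 ± 0.17, adjusted p = 0.125). Atp5mpl, a small proteolipid of the ATP synthase, had 60.8, 40.8 and 44.3 CPM and then 57.7, 72.9 and 88.0 CPM (0.58 ± 0.17, adjusted p = 0.144). In each of these genes mouse 144 was highest and mouse 141 was lowest among the KO BLM mice. Complex II had no member at an unadjusted p under 0.05. Sdha had 261 ± 34.4 CPM in KO PBS and 246 ± 4.64 CPM in KO BLM mice (-0.09 ± 0.14, adjusted p = 0.751), and Sdhd 81.4 ± 20.2 and 107 ± 17.3 CPM (0.39 ± 0.18, adjusted p = 0.259). The striated-muscle forms were also without a clear difference, with Cox6a2 at 22.4, 114 and 85.8 CPM in KO PBS and at 48.1, 63.1 and 120 CPM in KO BLM mice (0.06 ± 0.51, adjusted p = 0.962).

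Mouse 144 was the highest KO BLM mouse for 78 of 82 members and the highest of all 12 mice for 65, and mouse 141 was the lowest KO BLM mouse for 74. Other lists also differed between these mice. In mice 141, 143 and 144 the 9 epidermal genes were at 13268, 33367 and 45967 CPM and the mitochondrial ribosome proteins at 2482, 2685 and 3017 CPM, in the same order as the members. The growing-hair genes at 37380, 3758 and 6223 CPM, the fast muscle genes at 16760, 13742 and 25810 CPM and the dermal fibroblast genes at 8925, 23737 and 21998 CPM did not follow that order. The part of these lists in the result was not tested. Without mouse 144 the median was 0.25 with 0 members called, and without mouse 141 it was 0.48 with 32 called. Without KO PBS mouse 136, 15 members were called, without both 136 and 141, 51, and with the growing-hair covariate 11, and these fits also called more genes in all (2632, 4164 and 1689 against 56, and 1162 without mouse 141). The median of the members stayed above 0 with each mouse left out, while its size and the calls depended on mice 136, 141 and 144.

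**Figure D5:**
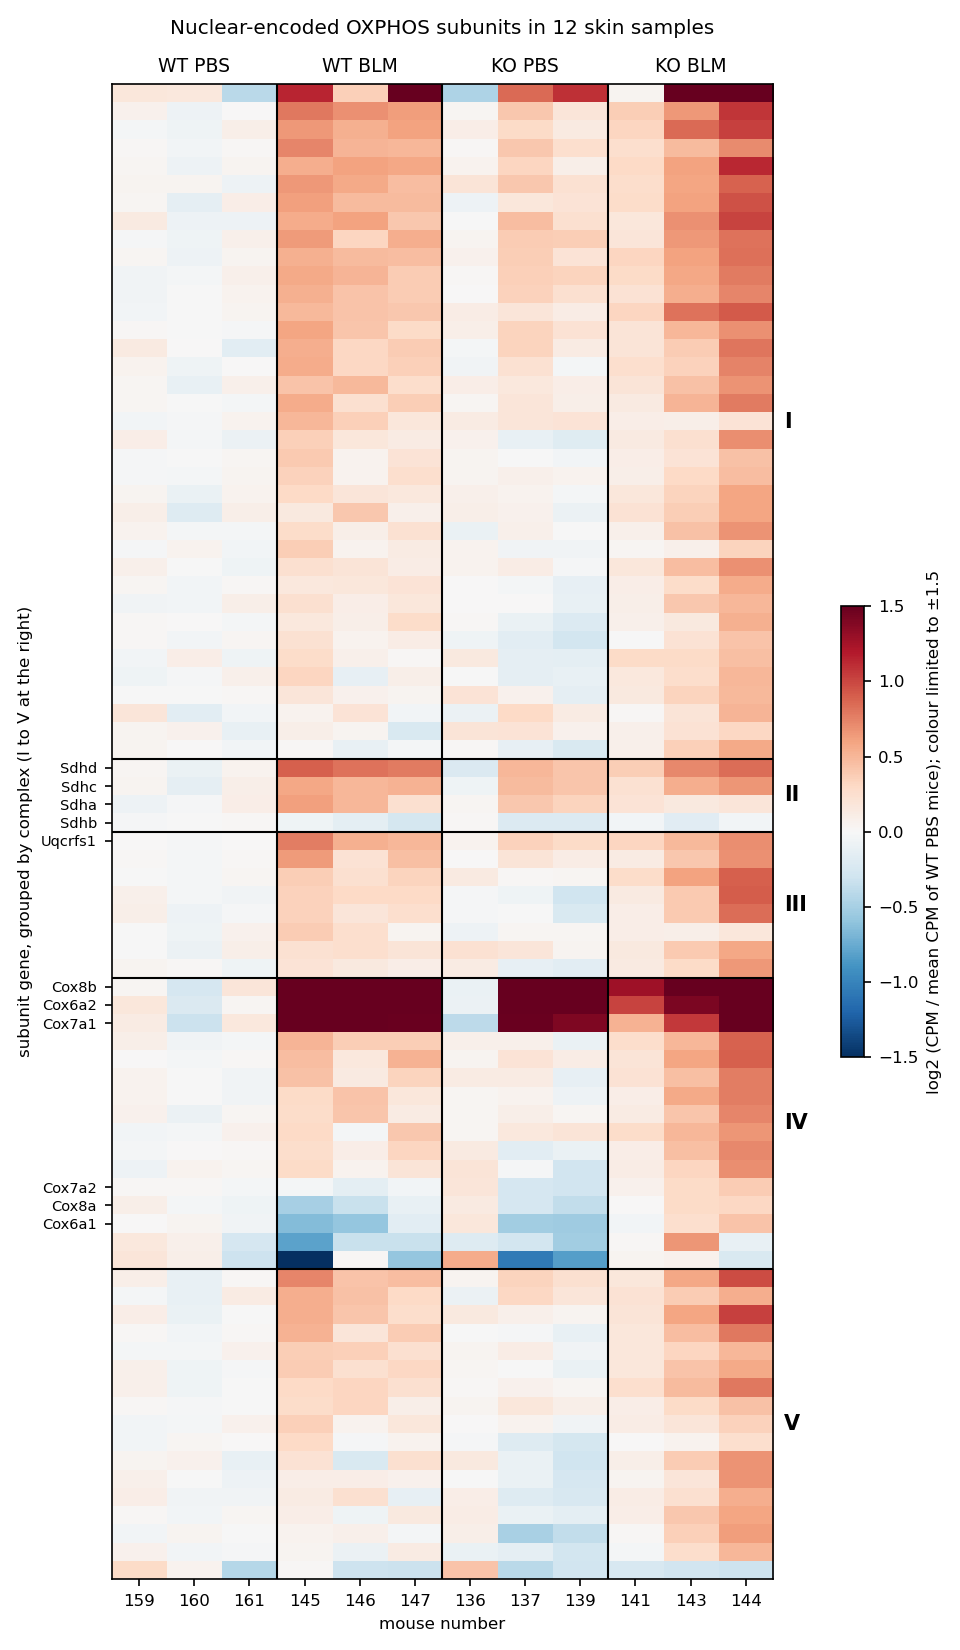
Heatmap of the 82 subunit genes (y axis, by complex and then by the WT bleomycin fold change, with some genes labelled) in 12 mice (x axis, by group), coloured by log2 of CPM over the mean of WT PBS mice and limited to ±1.5. KO BLM mouse 144 was the highest of the 12 mice for 65 of 82 genes, and Cox8b, Cox6a2 and Cox7a1 were low in KO PBS mouse 136 and high in mice 137 and 139.

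No member passed the edgeR test between the genotypes. Under PBS, 0 of 82 were called in KO against WT skin by edgeR (0.0655% of all genes), 3 had an unadjusted p under 0.05 (20.4% of all genes), and DESeq2 called 1, Cox6a2, where it called 746 of 34528 genes. The median log2 fold change was 0.05 against 0.02 over all genes, 32 members were below 0 against 48.7% of all genes, and 13 members were higher and 2 lower without overlap (8.62% and 10.3% of all genes). The 3 members with an unadjusted p under 0.05 were the striated-muscle forms, led by Cox6a2 with 1.64 ± 0.52 (adjusted p = 0.204), which was at 114 and 85.8 CPM in mice 137 and 139 but at 22.4 CPM in mouse 136, against 20.4 to 26.6 CPM in WT PBS mice. Without mouse 136, 7 members were called, 6 higher and 1 lower, where 6870 of 18739 genes were, and without mice 136 and 141, 15 members, where 7648 of 18688 genes were. In both fits the share of members called was below that of all genes. The lowest estimate was that of Cox6b2, -0.32 ± 0.25 (adjusted p = 0.431). All 15 fast muscle genes were above 0 in this comparison (median 1.90), with 0 called by edgeR and 12 at an unadjusted p under 0.05. With their mean as a covariate the estimates were -0.31 for Cox6a2, -0.34 for Cox8b and -0.51 for Cox7a1. With the growing-hair covariate they were 0.16, 0.11 and -0.21. Neither fit called a member. What the muscle and hair genes contribute to these values was not tested.

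Under bleomycin, 0 of 82 members were called in KO against WT skin by edgeR (0.0928% of all genes), 6 had an unadjusted p under 0.05 (16.6% of all genes), and DESeq2 called 0. The median log2 fold change was 0.15 against -0.03 over all genes, but it was -0.01 without mouse 144 and 0.30 without mouse 141. Below 0 were 15 members, against 52.6% of all genes. Without overlap, 6 members were higher and 1 lower, where 14.7% and 12.9% of all genes were. Among the 6 were Cox6a1, Cox7a2, Cox8a and Cox6b2. Cox6a1 was read at 146, 179 and 203 CPM in KO BLM mice against 95.5, 100 and 135 CPM in WT BLM mice (0.67 ± 0.21, adjusted p = 0.238), and Cox8a at 121, 146 and 149 CPM against 85.0, 95.3 and 112 CPM (0.51 ± 0.16, adjusted p = 0.235). Cox6b2 had the highest estimate in complex IV with 0.70 ± 0.25 (adjusted p = 0.258). The member that was lower in all KO BLM mice was Sdha, at 250, 241 and 247 CPM against 333, 308 and 257 CPM (-0.28 ± 0.14, adjusted p = 0.331). Without mice 136 and 141, 6 members were called in this comparison, where 815 of 18688 genes were, and without mouse 136 alone, 2 members, where 1292 of 18739 genes were.

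Whether the 2 genotypes responded differently was tested directly, as KO minus WT response to bleomycin. By edgeR 0 of 82 members and 0% of all genes were called, and 11 members had an unadjusted p under 0.05 (31.1% of all genes). DESeq2 called 7 members, 3 with a higher and 4 with a lower response in KO mice, where it called 3253 of 34528 genes. Those 34528 genes include low-count genes that the edgeR filter left out, while all members passed it, so the 2 shares are not like for like. Below 0 were 31 members, against 52.9% of all genes. The estimates ran from -2.32 ± 0.72 for Cox6a2 (adjusted p = 0.0867) to 1.02 ± 0.35 for Cox6b2 (adjusted p = 0.0988). The ubiquitous forms Cox6a1 and Cox8a had positive estimates, 0.93 ± 0.30 (adjusted p = 0.0908) and 0.66 ± 0.22 (adjusted p = 0.0986). The estimates of Ndufs1 and Sdha were negative, -0.39 ± 0.15 and -0.55 ± 0.20 (adjusted p = 0.114 and 0.108). Without mouse 136, 11 members were called in this test, where 7470 of 18739 genes were, and without mice 136 and 141, 16 members, where 7218 of 18688 genes were. The share of members called was again below that of all genes. The 15 fast muscle genes had a median of -2.82 in this test, with 0 called by edgeR and 13 at an unadjusted p under 0.05. With their mean as a covariate 0 members were at an unadjusted p under 0.05, and the fit called 0 of 18311 genes, as did the fit without it. The median of the members was 0.17 with the covariate and 0.12 without it, with 7 and 31 members below 0. The 21 growing-hair genes had a median of 6.74 in this test, with 0 called by edgeR and 12 at an unadjusted p under 0.05. With the mean of the hair genes as a covariate 1 member was at an unadjusted p under 0.05, and the fit called 0 of 18311 genes. The median of the members was then 0.26, with 7 below 0. What the muscle and hair genes contribute to these values was not tested.

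Transcripts that work with the subunits were followed in lists of the same kind. Of the 13 subunits encoded by mitochondrial DNA, 7 were tested. The other 6 (mt-Co2, mt-Atp8, mt-Atp6, mt-Co3, mt-Nd3 and mt-Nd4l), which are neighbours on that genome, had at most 1 count in each mouse, so no level can be given. Of the 7, 0 were called by edgeR in any comparison. Their median log2 fold change was 0.28 in WT skin, close to that of the nuclear members. In KO skin it was -0.40, where the nuclear members had 0.38. At an unadjusted p under 0.05 by edgeR were 0 of the 7 in WT skin and 2 in KO skin. In order of mouse number, the 13 genes summed to 17644, 14259 and 17524 CPM in WT PBS mice. WT BLM mice had 21299, 22812 and 14121 CPM, so the WT groups overlapped. KO PBS mice 136, 137 and 139 had 16843, 24200 and 20914 CPM. KO BLM mice had 16176, 14222 and 16109 CPM, without overlap but close to mouse 136. In KO skin 1 of the 7 was above 0, and the lowest was mt-Nd2 with -0.72 ± 0.28 (adjusted p = 0.193).

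Among 46 assembly factors tested, 7 rose and 2 fell in WT skin (median 0.14), where 19.8% of all genes rose and 14.1% fell. The share of assembly factors called was below that of all genes in each direction. The highest estimate was that of Uqcc3, which helps to assemble complex III (0.70 ± 0.20, adjusted p = 0.0258). The lowest was that of Atpaf1, a chaperone of the ATP synthase (-0.75 ± 0.18, adjusted p = 0.0143). Of 13 citric acid cycle genes 4 rose (median 0.25). The mitochondrial ribosome proteins, which translate the mitochondrially encoded subunits, had a median of -0.03 in WT skin with 4 of 77 called as higher, whereas in KO skin 75 of 77 were above 0 with a median of 0.28 and 0 called (40 at an unadjusted p under 0.05). Of 17 glycolysis genes 14 rose in WT skin with a median of 1.29, and the highest estimate was that of Pgam2, the muscle phosphoglycerate mutase (2.48 ± 0.49, adjusted p = 0.008). In KO skin 0 of the assembly factors, citric acid cycle and glycolysis genes were called (0.306% of all genes), with medians of 0.11, -0.02 and 0.28. At an unadjusted p under 0.05 were 8, 0 and 4 of these genes, against 20% of all genes.

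Of 14 regulators of mitochondrial gene expression, 5 rose and 1 fell in WT skin, where 19.8% and 14.1% of all genes did so. These 6 are named after their values were seen. Esrrg, an estrogen-related receptor of oxidative muscle, was read at 0.406, 0.691 and 0.917 CPM in WT PBS mice and at 6.66, 5.15 and 3.22 CPM in WT BLM mice (2.88 ± 0.58, adjusted p = 0.00809). Its relative Esrrb had 2.35 ± 0.53 (adjusted p = 0.0117) and Esrra 0.46 ± 0.15 (adjusted p = 0.0408), and the coactivators Ppargc1a and Ppargc1b had 0.91 ± 0.30 and 0.92 ± 0.24 (adjusted p = 0.042 and 0.0193). Nrf1, whose protein reads the NRF1 motif above, fell from 39.9, 37.1 and 38.8 CPM to 27.4, 24.7 and 27.8 CPM (-0.54 ± 0.13, adjusted p = 0.0149). The median of the 14 regulators was -0.17. In KO skin 0 of the 14 were called, with 2 at an unadjusted p under 0.05 (20% of all genes). Ppargc1a had the lowest estimate there at -0.70 ± 0.30 (adjusted p = 0.235).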

How the data were processed

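Whole-skin mRNA libraries of 12 mice were prepared by the authors with a stranded kit and sequenced as read pairs, and the authors deposited whole-number read counts for 55453 genes without normalization. The aligner, the counting tool and the use of strand are not given in the sources used here. The submitters' processing notes name the genome build GRCm38.p6 and MultiQC 1.7. Mice are labelled as separate animals.

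Counts were normalized by TMM and fitted with edgeR 4.0.16 (quasi-likelihood, 4 group means, R 4.3.3) after filterByExpr kept 18311 genes. All p-values were adjusted by Benjamini-Hochberg over those genes, with a threshold of 0.05, and the biological coefficient of variation was 34.9%. SE was taken from the log2 fold change and its F statistic. Mean log2 CPM used a prior count of 2. Isoform shares used exact permutation tests, with Python 3.11.15 and scipy 1.17.1. Exon lengths and positions came from GENCODE M21 (80 of 82 members) and promoters from RefSeq. The steps were tested on simulated data. Named genes were core subunits, isoform pairs and the highest and lowest estimate of each complex. Members and lists were chosen with earlier results of these data known. Alternatives were DESeq2 1.42.0, RLE and upper-quartile normalization, other filters, a fit of only 2 groups, each mouse left out, mice 136 and 141 left out, and muscle and hair covariates. Depth was 26473700 to 38890450 counts per mouse. Single genes that met the naming rule are in part not reported here.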

Additional observations from a re-analysis of the deposited data

Results flagged for a closer look

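One signal lay outside the comparisons. The gene listed as Ndufb1-ps, which the choice of members left out because of its name, held 22630 counts over the 12 mice, more than the 1241 counts of the member with the fewest, and it was singled out because reads were present in data that the comparisons did not use. The members include no Ndufb1. Whether these reads come from a working subunit gene or from a copy of one was not tested.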

How the results depend on the processing

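No paired analysis was possible because no mouse shares its number with a mouse of another group. The number of members called in WT skin (25, with 6222 of all 18311 genes) was 9 without a filter on low counts (5362 of 34689 genes) and 39 with only the 2 groups fitted (7803 of 17494). It was 0 with the fast muscle covariate (0 of 18311), 0 with the growing-hair covariate (14 of 18311) and 40 without mice 136 and 141 (38 higher, 2 lower, with 9159 of 18688 genes). Leaving out 1 mouse gave 3 to 33 members, with 2615 to 8565 genes. In KO skin (0, with 56 of all genes) the number of members called was 9 with DESeq2 (1202 of 34528 genes), 11 with the growing-hair covariate (1689 of 18311) and 51 without mice 136 and 141 (4164 of 18688) (1 mouse left out: 0 to 32). For KO PBS against WT PBS (0) it was 1 with DESeq2 and 15 without those mice (0 to 7), for KO BLM against WT BLM (0) 6 without them (0 to 2), and for the difference of responses (0) 7 with DESeq2 and 16 without them (0 to 11). The median log2 fold change ranged, with 1 mouse left out, from -0.00993 to 0.30 for KO BLM against WT BLM and from -0.0335 to 0.21 for the difference, which was 0.26 with the growing-hair covariate. The difference in Cox7a1 share between WT BLM and WT PBS was 20.5 percentage points per kilobase and 14.3 in raw counts, and the log2 fold change of Cox7a1 was -0.0702 with the fast muscle covariate. The cause of these changes was not tested. With 1 mouse left out, the median in WT skin ran from 0.16 to 0.30 and in KO skin from 0.25 to 0.48, and the differences in share between WT BLM and WT PBS from 34.0 to 45.2 points (Cox6a), 17.6 to 22.9 (Cox7a) and 31.9 to 43.0 (Cox8). Of the values of single genes, 1206 stayed on their side of the threshold under the other alternatives, and those without a call moved by less than 1 SE. A further 62 came past the threshold, 28 no longer passed it and 113 moved by more than 1 SE with no call. A change of sign was counted only where a value was called in either fit, and 1 reversed in this way, the Cox7a1 value above. Estimates without a call could also change sign. For Cox6a1, WT BLM against WT PBS went from -0.45 to 0.29 with the fast muscle covariate. With 1 mouse left out these numbers were 1590, 35, 44 and 35, with 0 reversed. Leaving the mitochondrially encoded transcripts out of the library size, an alternative chosen after seeing the data, gave 25 called in WT skin. With 3 mice per group, no single exact test can reach 0.05.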
